A study of Homo sapiens with 36 samples.

Results

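HMC3 cells exposed to 50 µM perfluorooctane sulfonate (PFOS) for 24 h were compared with HMC3 cells given vehicle for the same 24 h, across all genes of the RNA count table. HMC3 is an established human line that the labels call a microglial cell, and PFOS is a persistent perfluorinated surfactant. The comparison rests on 6 RNA-seq libraries, chosen by their labels alone: 3 labelled 50 µM PFOS and 3 labelled vehicle, each sampled directly after exposure. They are 6 of 36 samples: 18 were sequenced as RNA and 18, not analysed here, as H3K27ac CUT&Tag, which maps an active chromatin mark. The remaining RNA libraries, 25 µM PFOS at 24 h and all 3 treatments after a further 24 h without PFOS, entered the fit and are used only where named. All groups were grown in high-glucose DMEM with serum, and no source used here gives the composition of the vehicle.

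PFOS is a surfactant, and exposure of cells to such compounds is studied for effects on membranes, lipids and protein handling. Cells answer unfolded protein in the endoplasmic reticulum (ER) through the unfolded protein response, in which ATF6 and XBP1 raise chaperones and degradation factors. A second arm runs through phosphorylation of eIF2α and translation of ATF4, which raises amino acid import, amino acid synthesis and tRNA charging, and is shared with other stresses as the integrated stress response. Cholesterol synthesis is held in check separately: sterols in the ER membrane keep the transcription factor SREBP2 from being processed, and its target genes fall when sterols are plentiful.

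Total counts of the 6 libraries ranged from 882883 to 3435906, and the 3 libraries at 50 µM held 967960, 973434 and 1931726. Levels are counts per 1000000 counts in tested genes, after scaling (CPM), given as the 3 libraries or as mean ± SD (n = 3). Of 27 microglia and macrophage markers 15 had no count in any of the 6 libraries, among them CX3CR1, TMEM119, AIF1, ITGAM, SPI1 and C1QA, and 4 were high enough to be tested. The summed level of the 27 was 236 to 268 CPM in vehicle and 294 to 335 CPM at 50 µM. Mesenchymal surface and lineage markers summed to 1374 to 1501 CPM in vehicle and 834 to 869 CPM at 50 µM. These are bulk samples, so fewer cells of a type and less RNA per cell cannot be told apart. Ribosomal protein genes took 1.34% to 1.47% of counts in the vehicle libraries and 1.85% to 2.43% at 50 µM.

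At 50 µM 904 of 9847 tested genes rose (9.18%) and 944 fell (9.59%), so that 18.8% changed at an adjusted p under 0.05 in edgeR's quasi-likelihood test. Of these, 437 rose and 405 fell at least 2-fold, 71 and 70 at least 4-fold, and 12 and 11 at least 8-fold. The 3 and 3 libraries did not overlap for 41.4% of tested genes. The count of 1848 was 1139 without vehicle library 2 and 2828 when the 50 µM recovery libraries, which gave 2.94% to 7.58% of counts to ribosomal protein genes, were left out of the shared estimate of the spread. The median log2 change over all tested genes was 0.0053.

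**Figure D1:**
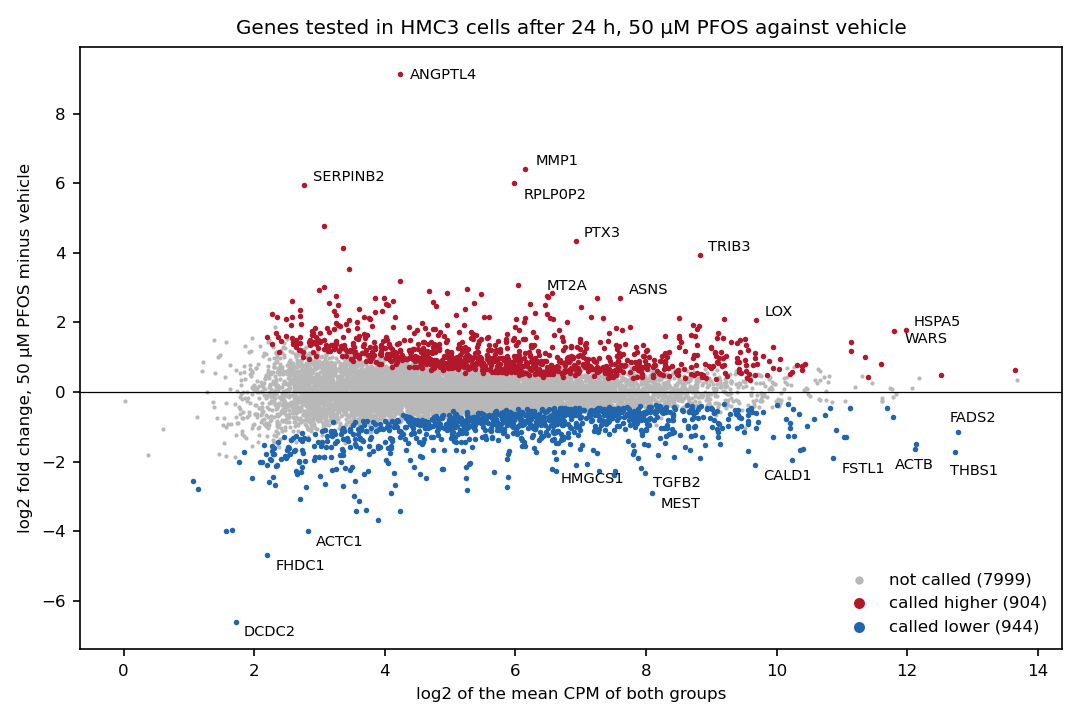
Log2 fold change of each tested gene (50 µM PFOS minus vehicle, 24 h) against the log2 of its mean CPM in both groups, with the 904 genes called higher in red, the 944 called lower in blue and the rest in grey. Changes of either sign run across the whole range of levels; the fitted values of ANGPTL4 and DCDC2, which had no count in 1 group, depend on the prior count.

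The gene with the largest rise was ANGPTL4, a secreted inhibitor of lipoprotein lipase and a PPAR target (chromosome 19: 8364155-8374370, GRCh38.p14, as are all positions here). It had 0 counts in all 3 vehicle libraries and 32.1, 43.3 and 37.2 CPM at 50 µM, at least 87.8-fold higher against a floor of 3 counts over the vehicle group. MMP1, the interstitial collagenase (chromosome 11: 102789919-102798160), stood at 2.35, 1.8 and 1.18 CPM in vehicle and 135, 146 and 139 CPM at 50 µM, which is 6.41 ± 0.36 as a log2 change ± SE (adjusted p = 1.76e-10 in edgeR). Every 50 µM library lay far above every vehicle library for both genes. The largest changes were chosen among genes without overlap, so only the distance is informative.

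The secreted pattern recognition protein PTX3 (chromosome 3: 157436850-157443633) went from 5.88, 10.8 and 14.4 CPM to 223, 209.8 and 265 CPM, a log2 change of 4.34 ± 0.25. SERPINB2, an inhibitor of plasminogen activators, had 0, 0 and 0.294 CPM in vehicle and 13.5, 18.4 and 8.67 CPM at 50 µM. THBD, the thrombin receptor thrombomodulin, had 0, 0.721 and 0.589 CPM and 15.5, 10.8 and 22.9 CPM. Both were near 0 in vehicle, and absence of overlap between the groups was a condition of their choice. CNIH3, an auxiliary subunit of AMPA receptors, rose by 4.15 ± 0.45 on the log2 scale, LURAP1L by 3.2 ± 0.37 and the sialyltransferase ST6GAL1 by 3.03 ± 0.41. The pseudogene RPLP0P2 rose from 1.18, 2.16 and 1.77 to 134, 129.8 and 109 CPM and had the smallest p of all genes (adjusted p = 8.91e-12). It resembles the ribosomal protein gene RPLP0, so how reads were divided between them is uncertain.

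Among the falls, DCDC2, a doublecortin-domain protein of microtubules and cilia (chromosome 6: 24171755-24383292), had 7.06, 6.49 and 6.18 CPM in vehicle and 0 counts in all 3 libraries at 50 µM, at least 8.44-fold lower. MEST, an imprinted gene of the hydrolase fold family (chromosome 7: 130486175-130506465), was far more abundant and fell from 473, 551 and 423 to 71.4, 64.9 and 57.1 CPM, by 2.91 ± 0.29 on the log2 scale. NPPB, the precursor of brain natriuretic peptide, had 30.6, 15.9 and 18.6 CPM against 0, 4.33 and 1.53 CPM. The formin FHDC1 fell by 4.69 ± 0.78, the zinc finger gene ZBED2 by 3.69 ± 0.45 and the glycoprotein gene MDGA1 by 3.15 ± 0.41. The organic anion transporter SLCO4C1 fell by 3.97 ± 1.11, a call that ended when 50 µM library 2 or 3 was left out. All of these have mean levels under 40 CPM except MEST.

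**Figure D2:**
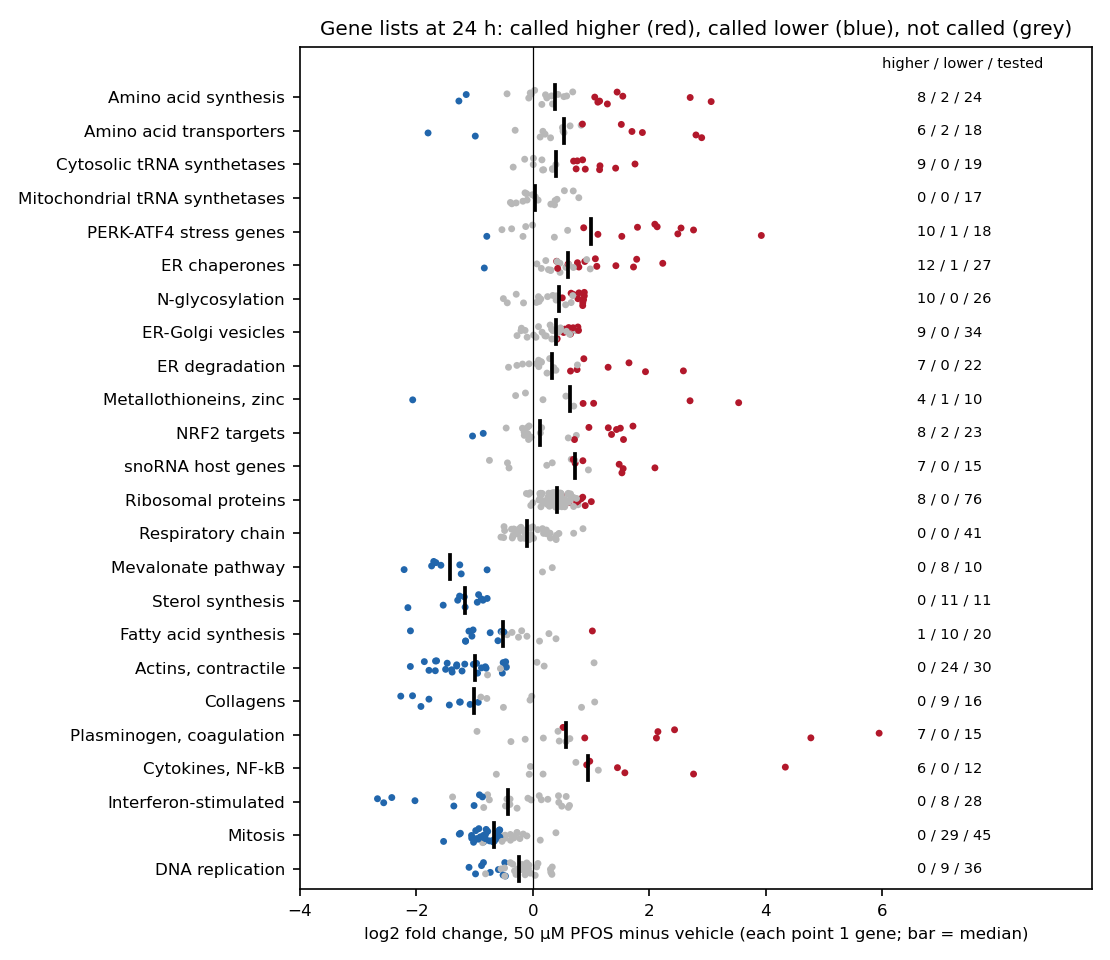
Log2 fold changes (50 µM PFOS minus vehicle) of the tested members of 24 gene lists, 1 point per gene, with the median as a bar and the numbers called higher, called lower and tested at the right. Amino acid, ER and plasminogen lists lie mostly to the right of 0, mevalonate, sterol, actin, collagen and mitosis lists to the left, and no respiratory chain gene was called.

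Many genes of the integrated stress response rose. Of 24 listed regulators and effectors 18 were tested, and 10 rose, 1 fell and 7 did not pass, with a median log2 change of 1.00 against 0.0053 for all genes. ATF4, the transcription factor at the centre of the response (chromosome 22: 39520559-39522686), went from 79.97, 53.3 and 65.7 to 197, 181 and 186 CPM, a log2 change of 1.53 ± 0.18 (adjusted p = 2.89e-06). DDIT3, the ATF4-induced factor CHOP (chromosome 12: 57516588-57520517), went from 29.4, 23.8 and 27.1 to 158, 154 and 135 CPM, a log2 change of 2.49 ± 0.26. The pseudokinase TRIB3 (chromosome 20: 380760-397559), which binds ATF4 and CHOP and dampens them, had 44.7, 58 and 61.5 CPM in vehicle and 852, 760.2 and 935 CPM at 50 µM. In all of these genes the lowest 50 µM library was above the highest vehicle library.

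The phosphatase subunit PPP1R15A, also called GADD34, which removes the phosphate from eIF2α, rose from 196 ± 22.1 to 679 ± 43.8 CPM, a log2 change of 1.8 ± 0.21. Its constitutive relative PPP1R15B did not pass (-0.17 ± 0.28). Effectors also rose: SESN2, a stress-induced inhibitor of mTORC1, by 2.14 ± 0.28, STC2, a secreted glycoprotein, by 2.1 ± 0.15, and the peptide hormone ADM2 by 2.55 ± 0.35. CEBPG, a partner of ATF4, rose by 0.87 ± 0.16. The 4 eIF2α kinases did not rise: EIF2AK1 had a log2 change of -0.0027 ± 0.14, EIF2AK3 (PERK) -0.12 ± 0.44 and EIF2AK4 (GCN2) -0.53 ± 0.20, none of which passed. EIF2AK4 was called lower under 4 of 16 alternatives. EIF2AK2 (PKR), which is also an interferon-induced gene, fell by 0.79 ± 0.19 (adjusted p = 0.00462), a call that ended with counts thinned to the shallowest library. ATF3, another ATF4 target, had 12.9, 10.8 and 17.1 CPM in vehicle and 15.5, 20.5 and 17.8 CPM at 50 µM and did not pass (adjusted p = 0.368).

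Some genes of amino acid synthesis rose. Of 24 tested genes of amino acid and one-carbon synthesis 8 rose, 2 fell and 14 did not pass (median 0.39). ASNS, asparagine synthetase (chromosome 7: 97851677-97928441), had 44.7, 49.7 and 58.6 CPM in vehicle and 352, 348 and 314 CPM at 50 µM, a log2 change of 2.7 ± 0.20 (adjusted p = 7.41e-09). PHGDH and PSAT1, successive enzymes of serine synthesis, rose by 1.28 ± 0.16 and 1.45 ± 0.13. In the folate cycle, the mitochondrial SHMT2 and ALDH1L2 rose by 1.55 ± 0.15 and 3.06 ± 0.23. SHMT1, the cytosolic counterpart of SHMT2 (chromosome 17: 18327873-18363550), fell from 213, 214 and 211 to 81.8, 109 and 97.4 CPM. PCK2, the mitochondrial enzyme that makes phosphoenolpyruvate, rose by 2.01 ± 0.23.

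Some amino acid transporters rose. Of 18 tested amino acid transporters 6 rose and 2 fell (median 0.53). SLC7A11, the cystine and glutamate exchanger (chromosome 4: 138164097-138242349), went from 4.7, 7.21 and 5.3 to 45.5, 50.8 and 39.8 CPM. Its heavy chain SLC3A2 rose by 1.7 ± 0.14, the glycine transporter SLC6A9 by 2.8 ± 0.26 and the glutamine transporter SLC38A1 by 1.88 ± 0.14. SLC38A2, the most abundant member and itself a known ATF4 target, was at 4120.5 ± 37.6 and 4498 ± 110.4 CPM and did not pass (adjusted p = 0.563). SLC43A2, which carries large neutral amino acids, fell by 1.8 ± 0.38.

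Of 19 tested cytosolic tRNA synthetases 9 rose and 0 fell, and of 17 mitochondrial ones 0 rose and 0 fell. Their medians were 0.40 and 0.044, and the difference between the lists was not tested. WARS, the tryptophan enzyme now named WARS1 (chromosome 14: 100333790-100376327), was the most abundant of those that rose. It had 2035, 1260.0 and 1582 CPM in vehicle and 5229.5, 7253 and 3957 CPM at 50 µM, with wide spread inside both groups and no overlap between them. GARS, the glycine enzyme, went from 202 ± 1.56 to 543 ± 17.4 CPM and AARS, the alanine enzyme, from 353 ± 18.8 to 786 ± 90.6 CPM. RARS, the arginine enzyme, had a log2 change of 0.011 ± 0.18 and did not pass. EIF4EBP1, a translational repressor that ATF4 induces, rose by 1.83 ± 0.23.

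The binding sequence of ATF4 was searched in promoters, and the list shares below cover tested members whether or not they changed. The C/EBP-ATF response element, written TGATGNAA, was searched on both strands from 250 bases before to 50 bases after the first listed start of each gene in RefSeq (GRCh38.p14), where 82.8% of tested genes had an entry. It was present in 3.67% of all promoters and 1.62% of those of tested genes. Among tested members it was in 5 of 12 promoters of cytosolic tRNA synthetases (41.7%), 1 of 14 of mitochondrial ones (7.14%), 4 of 15 of amino acid transporters, 4 of 15 of amino acid synthesis genes (both 26.7%) and 3 of 17 of stress regulators (17.6%). A match describes the letters and shows no binding. The promoters of ASNS (chr7:97872359-97872658, minus strand) and CHAC1 (chr15:40953221-40953520, plus strand) are shown as the called genes of smallest p among stress and amino acid genes that hold it, with the match in capitals. It was present in 3 of the 17 such called genes with an entry. In CHAC1 it lies on the opposite strand, so its reverse complement is read.
ASNS: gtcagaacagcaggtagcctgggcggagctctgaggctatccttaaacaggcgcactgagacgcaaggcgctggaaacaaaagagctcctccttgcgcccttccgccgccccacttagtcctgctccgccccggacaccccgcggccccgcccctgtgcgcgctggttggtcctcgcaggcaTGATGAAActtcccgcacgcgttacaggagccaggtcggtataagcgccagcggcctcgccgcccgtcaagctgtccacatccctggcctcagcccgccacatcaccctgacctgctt
CHAC1: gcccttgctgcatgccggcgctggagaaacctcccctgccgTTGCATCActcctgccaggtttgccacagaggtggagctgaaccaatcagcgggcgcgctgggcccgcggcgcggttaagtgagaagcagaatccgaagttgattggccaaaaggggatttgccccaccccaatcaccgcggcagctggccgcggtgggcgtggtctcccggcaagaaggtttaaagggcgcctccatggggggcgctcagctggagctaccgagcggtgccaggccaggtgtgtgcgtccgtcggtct
The match starts 68 bases before the listed start in ASNS and 209 bases before it in CHAC1. CHAC1, which degrades glutathione, had 32.9, 16.6 and 23 CPM in vehicle and 152, 177 and 134 CPM at 50 µM, a log2 change of 2.76 ± 0.32.

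Some chaperones of the ER rose. Of 27 tested ER chaperones and disulfide enzymes 12 rose, 1 fell and 14 did not pass (median 0.61), and 26 of the 27 log2 changes were above 0. HSPA5, the Hsp70 of the ER also called BiP (chromosome 9: 125234853-125241343), had 1742, 1910.4 and 1793 CPM in vehicle and 6272, 6075 and 6404 CPM at 50 µM, a log2 change of 1.78 ± 0.11 (adjusted p = 5.24e-10). Its share of all counts went from 0.168%, 0.193% and 0.177% to 0.626%, 0.577% and 0.650%. The spread inside each group was small beside the distance between them.

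DNAJB9, a J-domain cochaperone of HSPA5 (chromosome 7: 108569874-108574850), went from 18.8, 37.8 and 32.7 to 151, 157 and 137 CPM. SDF2L1, which keeps folding clients from aggregating, rose by 1.73 ± 0.24. The member that fell was ERO1L, the oxidase that recharges disulfide isomerases and is now named ERO1A. It had 19.99, 22 and 27.7 CPM against 20.7, 7.57 and 12.2 CPM, the groups overlapped, and the call ended under 6 of 15 alternatives, among them leaving out vehicle library 2 or 3 or 50 µM library 2 or 3. Of 9 tested sensors and transcription factors of the unfolded protein response 2 rose and 0 fell. CREB3, a membrane-bound factor of the ATF6 family, rose by 0.59 ± 0.13. XBP1 rose by 0.44 ± 0.15, a call that ended under 7 of 16 alternatives, among them leaving out vehicle library 1 or 3 or 50 µM library 2 or 3. The counts are per gene and do not show splicing of XBP1. ATF6 had 37.6, 47.2 and 32.1 CPM and 72.4, 47.6 and 58.1 CPM and did not pass (adjusted p = 0.0569), although 8 of 16 alternatives called it.

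The ER stress response element was searched for in the same windows: CCAAT, then CCACG after a gap of 9 bases. It was in 22 of 27305 promoters (0.0806%), in 14 of tested genes and in 6 of 24 promoters of ER chaperones (25%). Of the 14, 7 belong to genes called higher and 0 to genes called lower. The promoters of HSPA5 (chr9:125241294-125241593, minus strand) and HSP90B1 (chr12:103930160-103930459, plus strand) are shown as the called chaperone genes of smallest p that hold it, with the element in capitals. It was present in 4 of the 18 called genes of ER chaperones and ER degradation with an entry.
HSPA5: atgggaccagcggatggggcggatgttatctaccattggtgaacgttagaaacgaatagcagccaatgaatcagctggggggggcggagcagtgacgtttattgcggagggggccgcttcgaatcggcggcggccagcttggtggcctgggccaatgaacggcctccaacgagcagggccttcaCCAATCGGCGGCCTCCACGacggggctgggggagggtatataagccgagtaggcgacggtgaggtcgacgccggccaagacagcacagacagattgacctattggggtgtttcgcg
HSP90B1: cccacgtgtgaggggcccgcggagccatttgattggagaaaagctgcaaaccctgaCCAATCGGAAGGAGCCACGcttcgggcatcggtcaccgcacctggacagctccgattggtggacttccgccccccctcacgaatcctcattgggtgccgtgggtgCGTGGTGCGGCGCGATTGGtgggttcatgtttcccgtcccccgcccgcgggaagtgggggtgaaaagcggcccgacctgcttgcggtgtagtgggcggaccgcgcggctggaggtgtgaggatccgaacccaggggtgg
HSPA5 has 1 match, starting 66 bases before the listed start, and HSP90B1 has 2, 1 on each strand, starting 194 and 89 bases before it. HSP90B1, the Hsp90 of the ER also called GRP94, went from 1003, 1066 and 979 to 1785, 1730.2 and 1759 CPM, a log2 change of 0.79 ± 0.14.

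In degradation from the ER 7 of 22 tested genes rose, 0 fell and 15 did not pass (median 0.32). DERL3, a channel component induced by ER stress (chromosome 22: 23834503-23839006), went from 7.06, 7.57 and 7.66 to 55.9, 38.9 and 42.3 CPM. HERPUD1, which recruits the degradation complex, rose from 174 ± 11 to 667 ± 40.8 CPM, and SYVN1, its ubiquitin ligase, from 275, 150.3 and 176 to 633, 733 and 497 CPM. VCP, the segregase that pulls clients out of the membrane, did not pass (-0.42 ± 0.19), though 3 of 16 alternatives called it. Protein entry into the ER had 8 of 23 genes higher and 1 lower, and 5 higher without any 1 of the vehicle libraries or 50 µM library 1. The signal peptidase subunits went opposite ways: SEC11C rose by 1.47 ± 0.36 and SPCS3 fell by 0.81 ± 0.18.

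Some genes of later steps of the secretory pathway rose, and most did not pass. In N-glycosylation 10 of 26 tested genes rose and 0 fell (median 0.46), with no member above 0.88. GFPT1, which commits sugar to the hexosamine pathway and is an XBP1 target, went from 206, 251 and 204 to 423, 386 and 413 CPM. STT3A, a catalytic subunit of the oligosaccharyltransferase, had 2944, 1794 and 2104 CPM and 3562, 5203 and 3077 CPM, and its call ended when vehicle library 2, vehicle library 3 or 50 µM library 2 was left out. In vesicle traffic between ER and Golgi 9 of 34 rose and 0 fell, 19 without the 50 µM recovery libraries. KDELR1, the receptor that returns escaped chaperones, rose by 0.65 ± 0.16.

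Transcripts of enzymes of cholesterol synthesis fell along nearly the whole pathway. All 11 tested enzymes from squalene to cholesterol fell, and 8 of 10 enzymes up to squalene fell, with medians of -1.16 and -1.42. HMGCS1, the synthase that makes HMG-CoA (chromosome 5: 43287470-43313412), had 161, 174 and 133 CPM in vehicle and 27.9, 26 and 43.3 CPM at 50 µM, a log2 change of -2.21 ± 0.29 (adjusted p = 1.03e-05). IDI1, which isomerizes the isoprene unit, went from 343 ± 26 to 106 ± 17.6 CPM. For both the highest 50 µM library was under the lowest vehicle library. Of the later enzymes, TM7SF2, a sterol reductase, changed most, by -2.14 ± 0.27. CYP51A1, the sterol demethylase, went from 332 ± 26.8 to 114 ± 5.23 CPM. The 2 members that did not pass were PMVK (0.33 ± 0.30) and GGPS1 (0.17 ± 0.28), which makes the geranylgeranyl group used to anchor proteins and lies on a side branch.

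**Figure D3:**
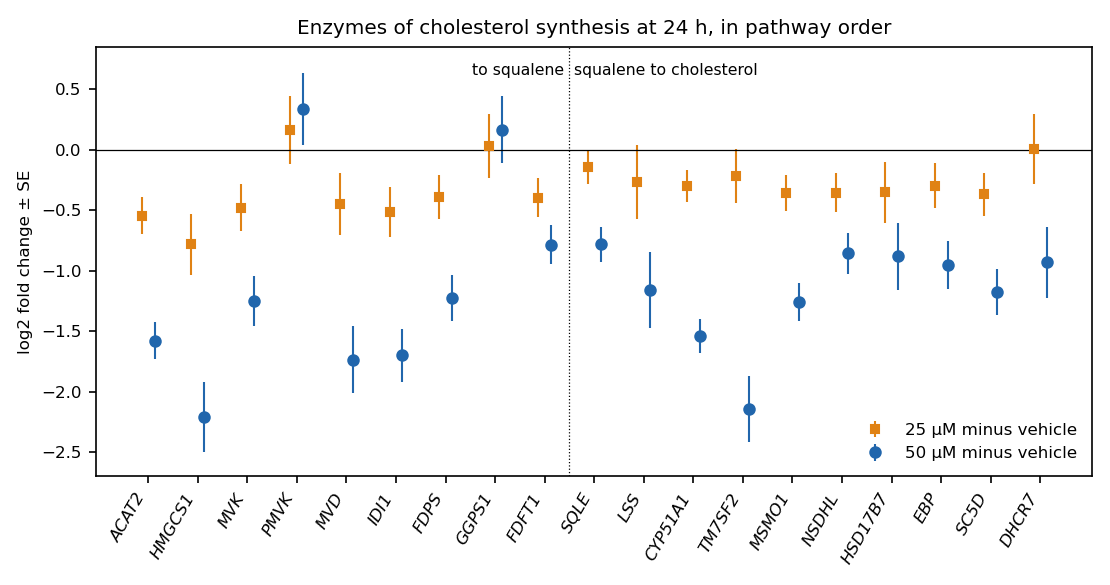
Log2 fold change ± SE of 19 tested enzymes of cholesterol synthesis in pathway order, at 50 µM (circles) and 25 µM (squares) against the same vehicle libraries. At 50 µM all lie between -0.78 and -2.21 except PMVK and GGPS1, which lie above 0; both series share the vehicle libraries.

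Genes of sterol sensing, uptake and trafficking went both ways. Of 20 tested, 5 rose and 4 fell. INSIG1, which retains the SREBP escort protein in the ER (chromosome 7: 155297878-155310235), went from 1087, 1233 and 1161 to 316, 361 and 392 CPM. TMEM97, a sterol-regulated ER protein, fell by 1.8 ± 0.14. ABCA1, the cholesterol exporter that oxysterols induce (chromosome 9: 104781006-104928155), rose from 10.6, 10.8 and 14.4 to 62.1, 46.5 and 60.7 CPM. NPC1, which moves cholesterol out of lysosomes, rose by 1.04 ± 0.18. The 5 rises became 3 without vehicle library 2 or 50 µM library 1, and 2 without vehicle library 3. A sterol regulatory element, TCACNCCAC, was in 1.15% of all promoters and in 0 of 16 promoters of the enzymes of both synthesis lists that had an entry, which says only that these letters are absent from these windows.

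In fatty acid synthesis 10 of 20 tested genes fell, 1 rose and 9 did not pass (median -0.51). ACSS2, which makes acetyl-CoA from acetate (chromosome 20: 34874989-34927959), went from 209, 179 and 206 to 39.3, 47.6 and 49.97 CPM. The desaturase FADS2 was among the genes with the largest fall in level, from 12038, 7258 and 9767 to 3949, 5265 and 3852 CPM. SCD, the stearoyl-CoA desaturase, went from 4897, 3993 and 4318 to 2673, 2963 and 2319.9 CPM, and FASN, the synthase, fell by 1.15 ± 0.30, a call that ended without 50 µM library 2. The member that rose was the elongase ELOVL6 (1.02 ± 0.26).

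Some genes of lipid storage rose. Among PPAR targets and lipid droplet genes 13 of 26 were tested, of which 5 rose and 1 fell, and 3 rose without vehicle library 2 or 3 or 50 µM library 3. PLIN2, the coat protein of lipid droplets (chromosome 9: 19108388-19127492), went from 91.7, 123 and 112 to 256, 264 and 306 CPM. PPARG, a nuclear receptor of fat storage, had 9.41, 3.96 and 3.24 CPM in vehicle and 15.5, 19.5 and 13.3 CPM at 50 µM. Fatty acid oxidation genes showed both signs, with 2 of 22 higher, 1 when any 1 of the 6 libraries was left out, and 4 lower. Over all tested genes 9.18% rose, close to the share of this list, and 9.59% fell. The 4 falls became 2 without 50 µM library 2 and 1 without 50 µM library 3. ACADVL, which starts the oxidation of very long chains, rose by 1.09 ± 0.19.

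Of 10 tested metal handling genes 4 rose and 1 fell. MT2A, a metal-binding metallothionein (chromosome 16: 56608584-56609497), had 30.6, 48.3 and 39.5 CPM in vehicle and 250.5, 298 and 245 CPM at 50 µM, a log2 change of 2.7 ± 0.35. MT1E, its neighbour, went from 0, 2.88 and 1.18 to 23.8, 19.5 and 18.4 CPM. Metallothioneins are near-identical, so the division of reads among them is uncertain. MT1X, below the filter, had 3 counts in the vehicle libraries together and 21 at 50 µM, and MT1F 0 and 16, in a group with fewer total counts. Zinc importers moved apart: SLC39A14 rose by 1.04 ± 0.17 and SLC39A10 (chromosome 2: 195613029-195737700) fell from 234, 214 and 211 to 50.7, 56.2 and 51 CPM. MTF1, the transcription factor that reads zinc, did not pass (0.17 ± 0.27). The letters of a metal response element, TGCGCNC, were in 2 of 8 promoters of this list (25%), against 32.3% of those of tested genes.

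Antioxidant genes under NRF2 had 8 of 23 tested members higher and 2 lower (median 0.13). The letters of an antioxidant response element, TGACNNNGC, were in 3 of 17 promoters of this list (17.6%), close to the 15.5% of tested genes. SQSTM1, an autophagy receptor that also binds the NRF2 inhibitor KEAP1, went from 251, 263 and 311 to 821, 738 and 873 CPM. TXNRD1, thioredoxin reductase, went from 307, 399.6 and 372 to 1068, 926 and 1075 CPM. FTL, the ferritin light chain (chromosome 19: 48965309-48966879), went from 1102, 1214 and 1314 to 3156, 3766 and 2916 CPM, with processed copies in the genome that make its read count uncertain. GSR, glutathione reductase, fell by 0.85 ± 0.29, a call that ended under 10 of 14 alternatives, among them leaving out any 1 of the 6 libraries.

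Actin and contractile genes fell. Of 30 tested actins, myosins, tropomyosins, calponins, tubulins and related filament genes 24 fell and 0 rose, with a median of -0.99, and 22 to 27 fell over the alternatives. Their summed level was 30795 to 34947 CPM in vehicle and 15789 to 16700 CPM at 50 µM. ACTB, cytoplasmic beta-actin (chromosome 7: 5527148-5530601), had 6138, 6485 and 7265 CPM in vehicle and 2255, 2406 and 2388 CPM at 50 µM, a log2 change of -1.5 ± 0.18 (adjusted p = 3.58e-06). ACTG1, cytoplasmic gamma-actin, went from 6101, 6935 and 7242 to 2186, 1958 and 2312 CPM. Actin genes are near-identical and have processed copies, so the division of reads among them is uncertain. Both are often used as reference genes.

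CALD1, caldesmon, which binds actin and tropomyosin (chromosome 7: 134711499-134970729), had the smallest p of any gene that fell. It stood at 1363, 1312 and 1268 CPM in vehicle and 321, 295 and 302 CPM at 50 µM, a log2 change of -2.1 ± 0.12 (adjusted p = 1.76e-10). MYL9, a regulatory light chain of non-muscle and smooth muscle myosin, went from 216, 214 and 234 to 63.1, 74.6 and 70.4 CPM. CNN1 and CNN2, calponins, fell by 1.67 ± 0.33 and 1.78 ± 0.22. The rarer muscle actins ACTC1 and ACTG2 fell by 4.01 ± 0.59 and 1.86 ± 0.33. MYOCD, myocardin, the coactivator of SRF that drives contractile genes (chromosome 17: 12665890-12768949), had 17.6, 22.7 and 21.2 CPM in vehicle and 1.03, 4.33 and 2.55 CPM at 50 µM. In adhesion sites, VCL, vinculin, which links integrins to actin, went from 728, 702 and 706 to 190.4, 190.3 and 195 CPM. FLNA, filamin A, had 981, 1016 and 964 CPM and 513, 381 and 545 CPM without overlap and did not pass (adjusted p = 0.0542), though 6 of 16 alternatives called it.

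The fall did not cover every filament gene. TUBA1C, an alpha-tubulin, did not pass (0.20 ± 0.13). ACTA2, smooth muscle actin, chosen after its values were seen, had 0, 2.52 and 2.06 CPM in vehicle and 2.07, 5.41 and 4.59 CPM at 50 µM and did not pass (adjusted p = 0.19), with vehicle libraries far apart.

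**Figure D4:**
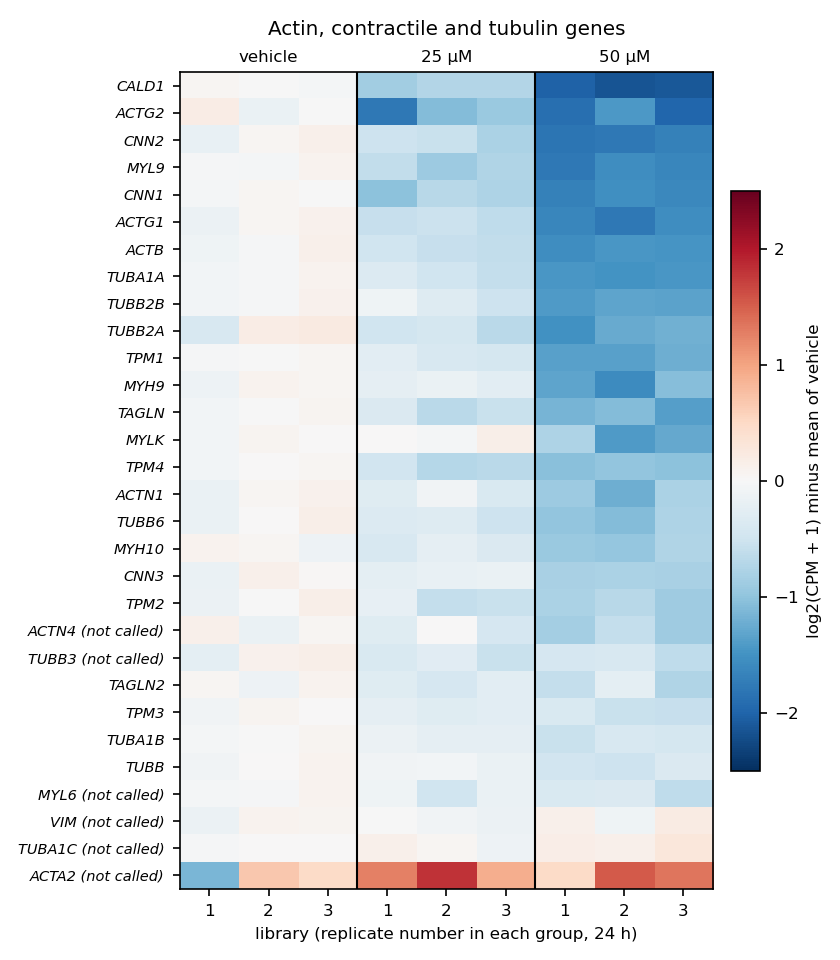
Heat map of log2(CPM + 1) minus the mean of the vehicle libraries for the 30 tested actin, contractile, tubulin and filament genes (rows) in each of the 9 libraries at 24 h (columns), blue lower and red higher. All 3 libraries at 50 µM are blue for most rows, those at 25 µM are paler, and ACTA2 varies among the vehicle libraries themselves.

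Collagen chains fell: 9 of 16 tested were lower and 0 higher (median -1.01). COL8A1, a short-chain collagen (chromosome 3: 99638594-99799217), went from 276, 334 and 309 to 61.1, 57.3 and 71.4 CPM. COL4A1, of basement membranes, went from 63.5, 59.5 and 63.6 to 13.5, 22.7 and 10.7 CPM, and the fibril collagen COL5A2 fell by 1.92 ± 0.21. COL6A2 did not pass (-0.017 ± 0.34). Collagen-modifying enzymes went both ways, with 5 of 18 higher, 3 without vehicle library 2, and 3 lower. LOX, which crosslinks collagen and elastin (chromosome 5: 122063195-122078259), went from 329, 309 and 318 to 1434, 1222 and 1348 CPM, and TLL1, which cleaves procollagen, from 15.3, 11.5 and 9.13 to 1.03, 0 and 2.04 CPM.

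Other matrix genes fell or did not pass, with 2 rises. Of 32 tested matricellular proteins, glycoproteins and proteoglycans 6 fell and 2 rose. THBS1, thrombospondin 1 (chromosome 15: 39581079-39599466), had the largest fall in level of all genes, from 13545, 7824 and 9834 to 2962, 3658 and 2835 CPM. FSTL1, a secreted glycoprotein that modulates BMP signals (chromosome 3: 120392293-120450992), went from 2927, 3040.3 and 2853 to 757, 808 and 793 CPM, with little spread in either group. SPARC, a collagen-binding glycoprotein, fell by 1.1 ± 0.12. FN1, fibronectin, the most abundant of the list, was at 11663 ± 1204 and 14708 ± 1868 CPM and did not pass. It was called higher under 2 of 16 alternatives. The 2 rises of 32 compare with 9.18% of all genes, and became 5 without the 50 µM recovery libraries. HAS2, a hyaluronan synthase, went from 11.8, 6.49 and 8.83 to 41.4, 36.8 and 60.2 CPM. CD44, a hyaluronan receptor, went from 290.5, 306 and 298 to 734, 680.2 and 765 CPM. Among integrins and adhesion genes 7 of 24 fell and 2 rose, and ITGB8, a subunit of the receptor that releases TGF-beta, fell by 2.89 ± 0.31.

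Some genes of plasminogen activation rose. Of 15 tested genes of plasminogen activation and coagulation 7 rose and 0 fell (median 0.57). Of 17 tested matrix proteases and their inhibitors 5 rose, MMP1 among them, 3 without vehicle library 2 or 3, and 3 fell (median -0.087). PLAUR, the urokinase receptor (chromosome 19: 43646095-43670169), had 37.6, 39.99 and 41.5 CPM in vehicle and 229, 215 and 206 CPM at 50 µM, a log2 change of 2.43 ± 0.17 (adjusted p = 4.18e-09). Its ligand PLAU, urokinase, did not pass (0.45 ± 0.21), though 3 of 16 alternatives called it. Inhibitors rose with the receptor: SERPINE2, protease nexin 1, went from 122, 143 and 141 to 632, 543 and 604 CPM, and SERPINB8 rose by 2.15 ± 0.24. The letters of an AP-1 site, TGACTCA, were in 4 of 12 promoters of the plasminogen list (33.3%) and 0 of 12 of the protease list. They were in 4.92% of all promoters and 2.69% of those of tested genes. FOSL1, an AP-1 subunit, rose from 139 ± 12.2 to 356 ± 16.8 CPM. In the list of AP-1 and immediate early genes 5 of 17 tested rose, 1 fell and 11 did not pass. A role of AP-1 in these changes was not tested.

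Inflammatory genes were mostly too low to test. Of 40 listed cytokines, chemokines and NF-kB genes 12 were tested, and 6 rose and 0 fell. The rises became 3 without vehicle library 3 or 50 µM library 1. Untested members, below the filter, went both ways in summed counts, in a 50 µM group with fewer total counts. From vehicle to 50 µM, CCL2 went from 14 to 0, CXCL12 from 9 to 0 and TNFAIP2 from 44 to 13. CXCL2 went from 6 to 31 and CXCL3 from 1 to 23. CXCL8, the neutrophil attractant interleukin 8 (chromosome 4: 73740569-73743716), had 0, 2.88 and 2.65 CPM in vehicle and 19.7, 20.5 and 11.2 CPM at 50 µM. NFKBIZ, an inducible cofactor of NF-kB, rose by 1.45 ± 0.30, while the feedback inhibitor NFKBIA did not pass (-0.04 ± 0.27). Of 28 tested interferon-stimulated genes 8 fell and 0 rose (median -0.42). The falls became 5 without vehicle library 1, 50 µM library 1 or 50 µM library 2 and 3 with thinned counts, and 3 genes rose without the 50 µM recovery group. IFIT1, which binds viral RNA caps (chromosome 10: 89392623-89406487), went from 41.2, 26.7 and 25.9 to 3.1, 4.33 and 5.61 CPM. GBP1, an interferon-induced GTPase, went from 23.5, 22.7 and 23.9 to 4.14, 4.33 and 0 CPM, and the antiviral MX1 fell by 2.42 ± 0.40, a call that ended with thinned counts.

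Of 14 tested feedback genes of the MAP kinase pathway 7 rose and 1 fell (median 0.85). SPRY4, a Sprouty inhibitor of receptor signalling (chromosome 5: 142310430-142325021), went from 44.7, 21.6 and 21.8 to 114, 136 and 135 CPM. DUSP6, the phosphatase of ERK, went from 82.3, 73.1 and 82.2 to 142, 163 and 168 CPM, and PHLDA1 rose by 2.16 ± 0.25. DUSP1, an immediate early phosphatase, did not pass (-0.27 ± 0.36).

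Genes of TGF-beta signalling and of YAP moved in both directions. In the TGF-beta and BMP list 5 of 24 rose and 6 fell, the falls becoming 3 without 50 µM library 3. The ligand TGFB2 (chromosome 1: 218345336-218444619) went from 412, 446 and 408 to 90.04, 88.7 and 75.5 CPM, while LTBP1, which stores latent TGF-beta in the matrix, rose by 2.71 ± 0.52. SMAD3, which carries the signal to the nucleus, fell by 1.54 ± 0.36, and ID3, a target of BMP signals, by 2.59 ± 0.63, and both calls ended without 50 µM library 3. Among YAP targets 6 of 17 fell, 3 without 50 µM library 3, and 1 rose. AMOTL2, a YAP target and inhibitor, went from 354, 397 and 413 to 127, 134 and 146 CPM. CTGF, now named CCN2, had 675, 428 and 261 CPM in vehicle and 173, 334 and 149.9 CPM at 50 µM, overlapping groups, and lost its call without vehicle library 1, 50 µM library 1 or 50 µM library 3.

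Some surface markers of mesenchymal cells changed. PDGFRB, the receptor of PDGF-BB (chromosome 5: 150113839-150155845), went from 114, 94.4 and 93.1 to 9.31, 22.7 and 21.4 CPM. THY1, a surface glycoprotein of fibroblasts, went from 846, 777 and 874 to 297, 309 and 279 CPM, and NT5E, the ecto-nucleotidase CD73, from 45.9, 29.2 and 30.6 to 158, 155 and 133 CPM. Of 13 tested markers 2 rose and 4 fell, the falls becoming 2 without vehicle library 2, 50 µM library 1 or 50 µM library 2. Of the 4 tested microglia markers CD68, a lysosomal glycoprotein, rose from 17.6, 20.5 and 20.6 to 54.9, 53 and 78.5 CPM, OLFML3 fell by 1.88 ± 0.42 (not called with thinned counts), and MERTK, a receptor for the uptake of dead cells, did not pass.

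Most mitosis genes fell. Of 45 tested genes 29 fell and 0 rose (median -0.67), and 36 of 45 were lower in every 50 µM library than in any vehicle library, against 2075 of all 9847 tested genes (21.1%). ANLN, anillin, of the contractile ring (chromosome 7: 36389862-36453791), went from 695, 749 and 699 to 247, 254 and 241 CPM. The kinesin KIF20A fell by 1.26 ± 0.15 and the spindle protein DLGAP5 by 1.24 ± 0.14. CDC20, the activator of the anaphase-promoting complex, was at 284 ± 10.04 and 266 ± 19.4 CPM and did not pass. The letters of the cell cycle homology region, TTTGAA, were in 29 of 39 promoters of this list (74.4%), against 15.4% of all promoters and 9.32% of those of tested genes. Of the genes of the list that changed and had an entry, 21 of 26 held it. The promoters of ANLN (chr7:36389612-36389911, plus strand) and DLGAP5 (chr14:55191536-55191835, minus strand) are shown as the 2 of smallest p among these, with each match on either strand in capitals.
ANLN: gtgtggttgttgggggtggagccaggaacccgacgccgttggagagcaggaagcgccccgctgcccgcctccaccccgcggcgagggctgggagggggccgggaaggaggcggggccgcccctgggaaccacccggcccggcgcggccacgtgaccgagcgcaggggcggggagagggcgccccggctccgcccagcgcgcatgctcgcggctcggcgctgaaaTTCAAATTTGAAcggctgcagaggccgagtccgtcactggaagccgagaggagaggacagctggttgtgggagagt
DLGAP5: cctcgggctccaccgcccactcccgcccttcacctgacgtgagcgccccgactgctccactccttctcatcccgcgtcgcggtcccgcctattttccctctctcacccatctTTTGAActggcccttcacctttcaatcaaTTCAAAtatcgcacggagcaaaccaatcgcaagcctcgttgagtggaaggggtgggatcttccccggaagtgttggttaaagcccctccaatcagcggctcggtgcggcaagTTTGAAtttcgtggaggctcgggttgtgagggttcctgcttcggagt
ANLN has 2 matches and DLGAP5 has 3.

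Among DNA replication genes 9 of 36 fell, 5 without vehicle library 2, and 0 rose. RRM2, the small subunit of ribonucleotide reductase, went from 803, 913 and 841 to 479, 549 and 514 CPM. Among regulators of the G1 phase 3 of 24 rose and 8 fell. CDKN1A, the inhibitor p21 (chromosome 6: 36676463-36687332), went from 347, 259 and 304 to 674, 732 and 760.2 CPM, and E2F7, a repressor of E2F targets, from 87, 92.6 and 66.6 to 263, 266 and 260.0 CPM. SKP2, which marks p27 for degradation (chromosome 5: 36152111-36193530), went from 2362, 1595 and 1796 to 441, 647 and 412 CPM, with wide spread in vehicle and no overlap. CDK6, the kinase of the same phase, fell by 1.04 ± 0.24. PLK2, a p53-induced polo kinase, fell by 1.64 ± 0.12.

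Among genes that passed, the largest rises in mean CPM were those of HSP90AB1, HSPA5, WARS, FTL, GAPDH, RPL31, HGS and STT3A. HSP90AB1, the constitutive cytosolic Hsp90, had 11547, 8572 and 9921 CPM in vehicle and 14421, 20843 and 11438 CPM at 50 µM, overlapping groups. GAPDH, a glycolytic enzyme, went from 5235, 4279.8 and 5094 to 6654, 7264 and 6501 CPM, and HGS, which sorts receptors at endosomes, from 1706, 1119.5 and 1325 to 3061, 3525 and 2799.7 CPM. Calls of HSP90AB1 and HGS ended without vehicle library 2, vehicle library 3 or 50 µM library 2, and that of GAPDH without vehicle library 2 or 50 µM library 2. LDHA, lactate dehydrogenase, which acts later in the same pathway as GAPDH, fell from 2776, 3190.2 and 3152 to 1281, 1299.8 and 1167 CPM. Of 22 glycolytic genes 2 rose and 2 fell, a share of 18.2% called that is close to the 18.8% of all genes.

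Ribosomal protein genes lay above 0 without passing in most cases. Of 76 tested 8 rose and 0 fell. The share of 10.5% is close to the 9.18% of all genes that rose, yet 72 of 76 log2 changes were above 0 (median 0.41). The rises were 2 without vehicle library 2 or 50 µM library 2, 3 without vehicle library 3, 5 without 50 µM library 1 and 31 without the 50 µM recovery libraries. RPL31 had 2557, 1060.0 and 1610.5 CPM and 2916, 5160.4 and 2392 CPM, overlapping groups, and lost its call in each of those 4 cases that leave out a vehicle or 50 µM library and with the replicate numbers as a block. These genes are short, and log2 change fell with gene span across 9781 genes (Spearman rho -0.17 as a description). Centred on genes of like span, their median was 0.23. Ribosomal protein genes have many processed copies, so their counts are uncertain. Host genes of small nucleolar RNAs, many of whose transcripts are degraded by nonsense-mediated decay, had 7 of 15 higher and 0 lower, 2 without vehicle library 2 and 4 without vehicle library 3. GAS5, a host gene with snoRNAs in its introns, went from 42.3, 38.6 and 29.7 to 98.3, 125 and 90.8 CPM.

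Of 41 nuclear-encoded respiratory chain genes 0 passed in edgeR, with a median of -0.10 and up to 5 higher and 4 lower over the alternatives. Mitochondrial protein quality control had 3 of 32 higher and 0 lower, a share of 9.38% that is close to the 9.18% of all genes that rose. Among the 3 were the protease LONP1 at 1.17 ± 0.26 and the chaperone HSPA9 at 0.94 ± 0.13. Autophagy genes had 9 of 39 higher and 0 lower, a share of 23.1% against the 9.18% of all genes that rose. Over the alternatives 6 to 12 of them rose. MAP1LC3B, which coats autophagosomes (chromosome 16: 87392336-87404774), went from 178, 185 and 172 to 622, 529 and 499 CPM, and WIPI1, which marks their assembly sites, from 83.5, 89.4 and 93.9 to 300.1, 313 and 308 CPM. Lysosomal genes had 6 of 38 higher and 1 lower, a share of 18.4% called in either direction that is close to the 18.8% of all genes.

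Between 50 and 25 µM at 24 h, 729 of 9847 genes differed (7.4%), 373 higher and 356 lower at 50 µM. That count was 347 to 439 without any 1 of the 6 libraries other than 50 µM library 3, and 541 without that one. MMP1 had 8.63 ± 1.54 CPM at 25 µM and was higher at 50 µM by 4.07 ± 0.29 on the log2 scale (adjusted p = 1.71e-08). MT2A had 63.3 ± 15.6 CPM at 25 µM (difference 2.08 ± 0.34), DNAJB9 48.3 ± 6.2 CPM (difference 1.61 ± 0.21) and SLC39A10 197 ± 10.6 CPM (difference -1.91 ± 0.14), and all 3 passed. In serine synthesis, PSAT1 had 862 ± 37.9 CPM at 25 µM, a difference of 0.093 ± 0.13 that did not pass (adjusted p = 0.739), and PHGDH 306 ± 3.82 CPM, a difference of 0.10 ± 0.16. ATF4 differed by 0.69 ± 0.17 and TRIB3 by 1.32 ± 0.23, which passed, and ASNS by 0.54 ± 0.19, which did not (adjusted p = 0.0824). In the sterol pathway HMGCS1 differed by -1.43 ± 0.29 and CYP51A1 by -1.24 ± 0.14, and in the contractile group CALD1 by -1.33 ± 0.12, and all 3 passed.

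**Figure D5:**
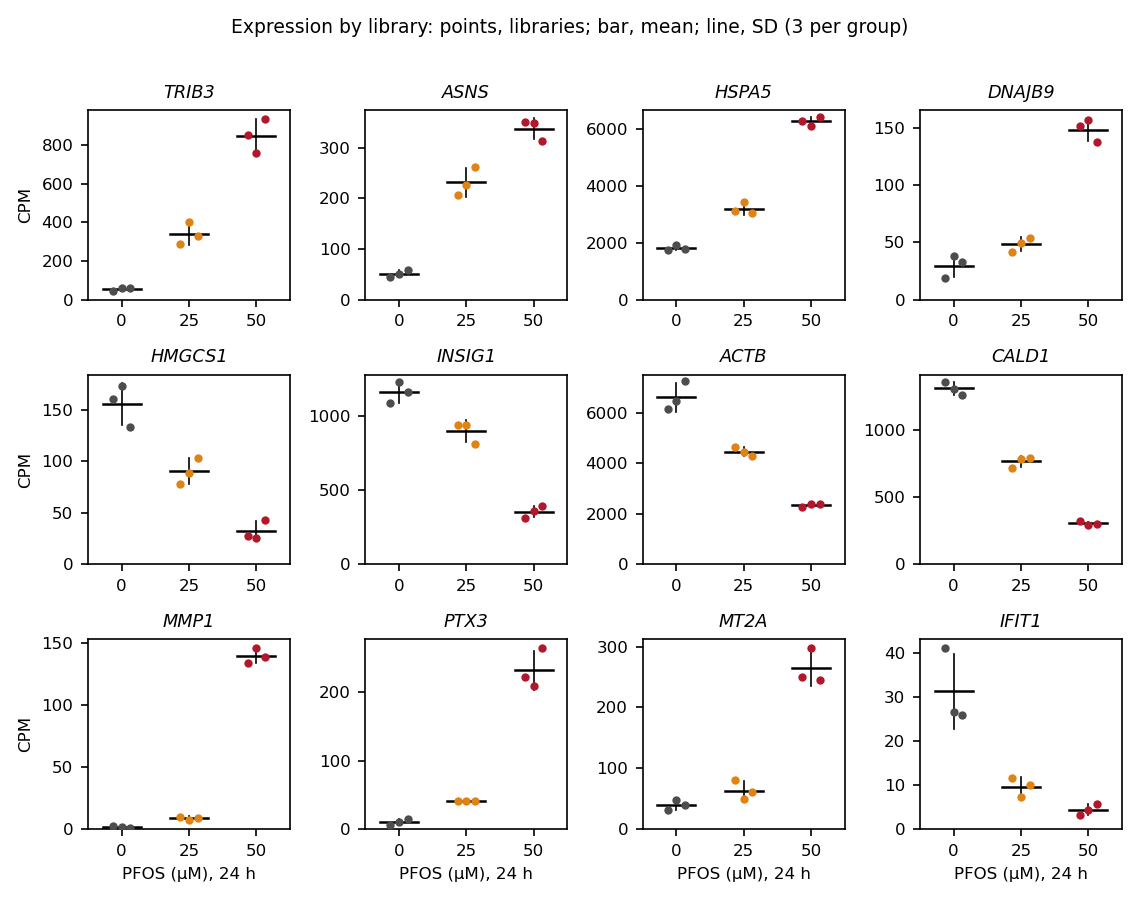
CPM of 12 genes in each library at 24 h (points), with the mean as a bar and the SD as a line, for vehicle (0), 25 µM and 50 µM PFOS, 3 libraries per group; each panel has its own axis from 0. TRIB3, ASNS, HSPA5, DNAJB9, MMP1, PTX3 and MT2A are highest at 50 µM in every library, and HMGCS1, INSIG1, ACTB, CALD1 and IFIT1 are lowest.

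The effect of 50 µM PFOS against vehicle after recovery differed from that at 24 h for 1878 genes (19.1%). The share of these with the larger log2 value after recovery was 61.1%, and 48.6% under upper-quartile scaling. ASNS had a log2 change of -0.53 ± 0.20 after recovery, HSPA5 0.026 ± 0.11, HMGCS1 0.44 ± 0.26, CALD1 -1.1 ± 0.11 and ACTB -0.70 ± 0.18, set beside their values at 24 h given above.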

How the data were processed

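RNA-seq libraries of HMC3 cells, labelled as biological replicates, were made with Smart-seq2 after poly(A) selection and sequenced as read pairs, per the labels' protocols. The values are unnormalized read counts by gene symbol in 1 deposited table. Per the submitters' processing notes, the tools were Trimmomatic, STAR, DESeq2 and MACS2 and the build GRCh38 (hg38). No source used here gives tool versions, the counter, the annotation or the use of strand, so reads of overlapping antisense genes cannot be told apart. The labels do not say that replicates came from separate cultures, so the p-values reflect only how these libraries vary, which may be technical.

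Of 25344 symbols 7391 were at 0 throughout the RNA libraries. All 18 RNA libraries (6 groups of 3) were fitted with edgeR 4.0.16 in R 4.3.3, using filterByExpr with a minimum count of 10, TMM scaling, the quasi-likelihood test and Benjamini-Hochberg adjustment over the 9847 genes tested, with a threshold of 0.05. These genes hold 99.2% of counts. CPM use TMM-scaled totals of the tested genes, and the SE of a log2 change is its size divided by the root of F. Floors and shares cover counting error only. Gene positions came from RefSeq GRCh38.p14, where 95.3% of symbols were found. No 2 replicates held identical counts, and replicate pairs differed by more than sampling noise.

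Named genes were the 12 largest rises and falls among called genes whose mean reached 5 CPM in a group and whose libraries did not overlap, the 8 largest in level, the 6 of smallest p, and for each gene list up to 5 called genes in each direction and up to 3 uncalled abundant ones. All tested sensors, stress and metal genes could be named too, and 2 promoters per motif. The comparison, the lists and this rule were chosen with earlier results of these data known. Alternatives were other scalings, filters, libraries in the fit and thinned depth, a replicate block, DESeq2 1.42.0 and leaving out each library. Results for some genes that the rule names are not reported here. The code was tested on simulated data.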

Additional observations from a re-analysis of the deposited data

Results flagged for a closer look

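Of 23 genes among those with the largest changes at 24 h, 13 had an effect of 50 µM PFOS after recovery that differed from the effect at 24 h by edgeR's interaction test, and the other 10 were not shown to differ. Each value is the log2 effect after recovery minus that at 24 h. Genes that had risen at 24 h gave negative differences: RPLP0P2 -4.32, TRIB3 -3.87, PTX3 -3.32, ALDH1L2 -3.14, ST6GAL1 -2.77 and LURAP1L -2.03. Genes that had fallen gave positive differences: DCDC2 6.82, ZBED2 4.2, FHDC1 3.86, NPPB 3.4, GBP1 3.05, ACTC1 2.85 and MEST 2.5. The genes were chosen for their size at 24 h, which favours a smaller effect in other libraries. The 3 libraries of 50 µM PFOS after recovery gave 2.94% to 7.58% of counts to ribosomal protein genes, against 1.85% to 2.43% at 50 µM directly after exposure, and the part of this in the differences was not tested.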

How the results depend on the processing

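The count of 1848 changed genes lay between 1608 and 2008 under both other scalings, both other filters and DESeq2. It was 2860 from the 6 libraries of both groups alone, 3147 from the 9 libraries at 24 h, 2828 without the 50 µM recovery group and 1139 with counts thinned to the shallowest library. Leaving out 1 of the 6 libraries gave 1139 to 1707, lowest without vehicle library 2. For 50 against 25 µM the count of 729 became 1860, 1544 and 415 with the 9 libraries, without the 50 µM recovery group and thinned, and 347 to 541 without 1 library. The recovery difference of 1878 genes became 1049 when thinned, and leaving out single libraries was not run for it. Pairing by replicate number was not shown: the deviations of same-numbered libraries correlated at -0.015, -0.13 and 0.038. With 3 libraries per group these values cannot exclude weak pairing. With the numbers as a replicate block the counts were 1719, 627 and 1661. For 50 against 25 µM all settings but the block, the 9 libraries and leaving out libraries were chosen after seeing the data, as were all settings for the recovery difference, the block included, and the centring on gene span. ER chaperones called higher were 12, and 19 from the 6 or the 9 libraries alone. Of the genes named in the text 135 called ones stayed called in all alternatives run and 16 lost their call in at least 1. Total counts as low as 882883 limit the precision of genes of low level.

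The log2 changes of 6 genes that did not pass changed sign, which leaves their direction undetermined. With counts thinned they were 0.18 for COL6A2, 0.074 for EIF2AK1, 0.075 for EIF2AK3 and -0.093 for RARS. COL6A2 was 0.0020 with DESeq2 and RARS -0.0096 without a filter, and EIF2AK1 was 0.011, 0.0091 and 0.011 with DESeq2 size factors, upper-quartile scaling and a minimum count of 30. Leaving out 1 library gave -0.13 to 0.10 for COL6A2, -0.84 to 0.24 for DUSP1, -0.083 to 0.086 for EIF2AK1, -0.55 to 0.15 for EIF2AK3, -0.23 to 0.097 for NFKBIA and -0.064 to 0.083 for RARS.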

Other observations

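The shares of p53 targets and death pathway genes that changed, 20.8% and 16.7%, were close to the 18.8% of all genes. Of 24 tested p53 targets 3 rose and 2 fell, and of 18 genes of the BCL2 family and death pathway 3 rose and 0 fell, against 9.18% and 9.59% of all genes. In the latter list 1 rose and 1 fell with thinned counts or without vehicle library 1, and 1 rose and 0 fell without vehicle library 2, vehicle library 3, 50 µM library 1 or 50 µM library 3. FAS, a death receptor, went from 7.06, 5.04 and 6.18 to 15.5, 20.5 and 18.4 CPM, and TNFRSF10B, the TRAIL receptor DR5 and a CHOP target, from 108, 96.2 and 81.6 to 175, 160.0 and 211 CPM. The caspase inhibitor XIAP rose too, by 0.99 ± 0.18 on the log2 scale.

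Proteasome genes mostly did not pass, with 2 of 40 higher and 3 lower, and 4 higher and 8 lower without the 50 µM recovery group. PSMD1, a subunit of the regulatory particle, fell by 0.75 ± 0.12. Among drug and lipid transporters of the ABC family outside the sterol list 3 of 17 fell (17.6%) and 0 rose. Over all genes 9.59% fell and 18.8% changed, and with thinned counts 1 of the list fell. ABCB1, the efflux pump P-glycoprotein, went from 59.98, 54.4 and 50.9 to 19.7, 19.5 and 20.9 CPM. Among hypoxia-inducible genes outside glycolysis NDRG1, a stress-induced gene, rose by 1.98 ± 0.43 and ADM, the peptide adrenomedullin, fell by 1.09 ± 0.18.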
